A study of Mus musculus with 24 samples.

Results

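The genes described act in inflammatory and regulated cell death. They are Casp1, Casp4, Casp8, Casp12, Gsdmd, Pycard, Ripk1, Ripk3 and Mlkl, each taken by its gene symbol from the deposited table of raw counts, 9 of the 46078 genes there. All 9 passed the filter on low counts, each through the WT libraries alone, 8 of 12 for Casp1 and 12 of 12 for the others. Polyadenylated RNA from the ventricular apex of 24 male C57BL/6 mice aged 10 weeks was sequenced at day 5, in 4 groups of 6 hearts. DTR_PYR hearts were injured with diphtheria toxin and treated with pyridostigmine, a cholinesterase inhibitor that slows the breakdown of acetylcholine. DTR_PBS hearts were injured in the same way and received the PBS vehicle, WT_PYR hearts had no toxin and received pyridostigmine, and WT_PBS hearts had no toxin and received PBS. DTR commonly stands for a receptor that makes mouse cells sensitive to diphtheria toxin. The labels do not name the promoter or the cells that express it. Genotype and toxin moved together, so their parts cannot be told apart.

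Pyroptosis is an inflammatory form of lytic death in which an inflammasome, built on a sensor and the adaptor PYCARD (ASC), activates caspase-1, or bacterial lipopolysaccharide activates mouse caspase-11, the product of Casp4. Both caspases cleave gasdermin D, whose fragments open pores in the cell membrane. Necroptosis runs from death receptors through RIPK1 and RIPK3 to MLKL, which breaks the membrane, and caspase-8 holds it back while it can also start apoptosis. Cleavage and phosphorylation decide the activity of these proteins, and only transcript levels were measured here.

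Library totals ran between 1877914 counts in DTR_PBS 4 and 37842245 in DTR_PYR 5, and counts of a member in a single library ran between 0 for Casp1 in DTR_PYR 3 and 1044 for Casp8 in DTR_PBS 1. Libraries are named by group and number in accession order. DTR_PYR 4, 5 and 6 stood apart from the other injured libraries: on the first principal component, which held 44.2% of the variance, they lay at -35.4, -25.6 and -20.9. The other 9 injured libraries lay between 30.3 and 114 and the 12 WT libraries between -57.2 and -35.1. Results that use DTR_PYR are therefore given with and without these 3 libraries. The summed level of 9 ventricular cardiomyocyte markers was 24200 to 92200 CPM (counts scaled to one library size with TMM factors) over all 24 libraries. It was 24200 to 65900 CPM in DTR_PBS and 35700 to 75400 CPM in DTR_PYR. Every WT library was higher, at 76300 to 92200 CPM in WT_PYR and 80200 to 83600 CPM in WT_PBS.

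Casp1, Casp4 and Casp12 are neighbours on the plus strand of chromosome 9 (GRCm38, deposited loci). Casp1 lies at chr9:5298517-5307265, Casp4 at chr9:5308828-5336783 and Casp12 at chr9:5345430-5373032, with 1562 bases between the first pair and 8646 bases between the second pair. Casp8 lies at chr1:58795374-58847503 on the plus strand, Gsdmd at chr15:75862339-75867404 (plus), Pycard at chr7:127992103-127993867 (minus), Ripk1 at chr13:34002363-34035170 (plus), Ripk3 at chr14:55784996-55788857 (minus) and Mlkl at chr8:111311797-111338177 (minus). The libraries carried no strand information, so counts of 2 members are uncertain. Ripk1 shared 241 exon bases with Serpinb6a on the other strand and 511 with the pseudogene Gm17084 on its own strand, and Pycard shared 485 with Gm45205 on the other strand.

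The promoters of the 3 members with the smallest p-values in injured hearts given PBS are shown, 5′ to 3′ on the strand of the gene, each as 300 bases around the RefSeq transcription start (GRCm38.p6). Casp4 is at chr9:5308599-5308898 (plus), Casp8 at chr1:58802252-58802551 (plus, inside the deposited locus and after its start) and Ripk3 at chr14:55788808-55789107 (minus). Capitals mark the NF-kappaB-type motif GGGNNTTCC and the GC box GGGCGG on either strand.
Casp4: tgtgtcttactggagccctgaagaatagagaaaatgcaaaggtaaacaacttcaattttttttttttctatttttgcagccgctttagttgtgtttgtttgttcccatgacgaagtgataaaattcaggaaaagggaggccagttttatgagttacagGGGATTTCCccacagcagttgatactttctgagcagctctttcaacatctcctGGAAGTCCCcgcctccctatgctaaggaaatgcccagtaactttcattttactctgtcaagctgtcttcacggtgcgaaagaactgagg
Casp8: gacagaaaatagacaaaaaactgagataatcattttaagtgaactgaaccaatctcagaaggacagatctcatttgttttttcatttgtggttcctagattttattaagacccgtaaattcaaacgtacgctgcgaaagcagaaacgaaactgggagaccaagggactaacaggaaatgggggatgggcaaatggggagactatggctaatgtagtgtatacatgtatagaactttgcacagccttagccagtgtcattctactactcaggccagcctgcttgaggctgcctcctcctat
Ripk3: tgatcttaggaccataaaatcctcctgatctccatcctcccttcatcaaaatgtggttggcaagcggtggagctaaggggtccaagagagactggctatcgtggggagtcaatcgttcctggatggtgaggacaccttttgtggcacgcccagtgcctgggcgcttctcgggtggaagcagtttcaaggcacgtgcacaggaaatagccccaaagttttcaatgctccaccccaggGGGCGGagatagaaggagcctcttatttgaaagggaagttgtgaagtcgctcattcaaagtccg
The Casp4 promoter held the NF-kappaB-type motif at -92 as printed and at -39 on the other strand, counted from the start site to the first base of the match. Among 32851 RefSeq promoters of the same length, 5.82% held that motif. Ripk3 held a single GC box at -14, a motif found in 35.7% of promoters, and the Casp8 window held neither motif. RefSeq promoters were matched for 8 of the 9 members, 10 windows in all. The gamma-interferon-activated motif TTCNNNGAA (8.3% of promoters) was in the Casp12 and Ripk1 windows. The E2F-type motif TTCCCGC (4.6%) was in Ripk1, and the AP-1 motif TGANTCA (7.81%) and the TATA box TATAAA (13.6%) were in 0 of the 10 windows. No match of these motifs overlapped a match of another. Ripk1 was also the most GC-rich, at 61.7% and 67.0% in its 2 windows, against a median of 52.7% over all promoters. These matches describe letters and were not tested for binding.

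Levels per kilobase of exon (RPKM) were compared between genes. In uninjured WT_PBS hearts Pycard was highest at 5.74 ± 1.13 RPKM (SD, n = 6), followed by Gsdmd at 3.48 ± 0.51 and Casp8 at 1.89 ± 0.23. Mlkl at 1.41 ± 0.488, Ripk3 at 1.32 ± 0.244, Ripk1 at 0.823 ± 0.28, Casp12 at 0.678 ± 0.517, Casp1 at 0.603 ± 0.374 and Casp4 at 0.289 ± 0.123 followed. The only neighbours in this order whose libraries did not overlap were Gsdmd and Casp8. In DTR_PBS hearts Pycard averaged 9.7 ± 2.89 RPKM, Gsdmd 4.8 ± 1.91, Casp8 4.51 ± 2.01, Ripk3 4.27 ± 2.15 and Casp4 1.09 ± 0.867 (SD, n = 6 each). Ripk3 stood above Mlkl there, at 2.76 ± 1.31 RPKM for Mlkl, but the ranges of these genes overlapped.

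**Figure D1:**
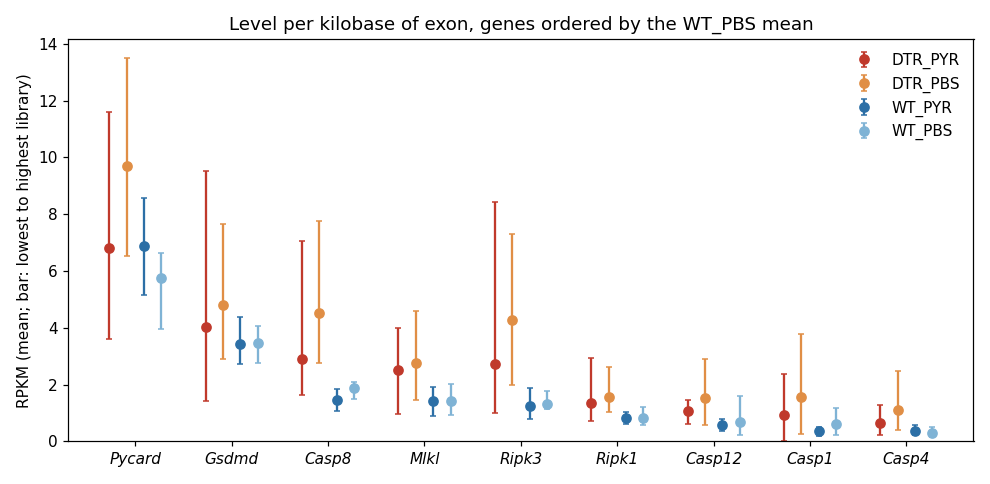
Mean level per kilobase of exon (RPKM, y axis) of each gene (x axis, ordered by the WT_PBS mean) in the 4 groups of 6 libraries, with bars from the lowest to the highest library. Pycard and Gsdmd were the highest in WT_PBS hearts and Casp4 the lowest.

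In injured hearts given vehicle, 7 of the 9 genes rose relative to WT_PBS hearts: Casp4, Ripk3, Casp8, Casp12, Mlkl, Ripk1 and Pycard. Casp1 and Gsdmd did not pass the threshold, an adjusted p under 0.05 in the edgeR quasi-likelihood test over all genes. Of all 15456 genes tested, 42.9% were called in this comparison and 21.3% were higher, so a call alone is common here. The median log2 fold change was 1.16 over the 9 genes and 0.0094 over all genes tested. In bulk tissue a change in the number of cells of a type and a change in RNA per cell cannot be told apart. The labels give each animal a tag with the letter U or V and do not say what it marks. Among animals with V tags, 4 DTR_PBS against 2 WT_PBS, only Ripk3 was called, where 9.72% of all genes were higher, and the 9 log2 fold changes were 0.36 to 1.70. Among U tags with numbers above 300, 2 against 2, 7 genes were called, where 16.3% of all genes were higher.

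Ripk3, the kinase that phosphorylates MLKL, had 4.54, 8.47 and 16.7 CPM as the lowest, median and highest of the 6 DTR_PBS libraries, against 2.61, 2.82 and 4.07 CPM in WT_PBS. All 6 DTR_PBS libraries lay above every WT_PBS library. The fold was 3.32, with a log2 fold change of 1.73 ± 0.41 (SE) and an adjusted p of 0.00141. Mlkl, the membrane executioner of necroptosis, had 3.34, 5.7 and 10.6 CPM in DTR_PBS, against 2.11, 3.11 and 4.62 CPM in WT_PBS. Its groups overlapped, with 4 of 6 DTR_PBS libraries above all WT_PBS ones, and the log2 fold change was 1.0 ± 0.35 (SE, adjusted p = 0.0221). Ripk1, the kinase upstream of RIPK3, had 6.5, 7.93 and 16.6 CPM in DTR_PBS, against 3.77, 4.45 and 7.71 CPM in WT_PBS. It rose by 0.95 ± 0.30 on the log2 scale (SE, adjusted p = 0.0124), with 4 of 6 DTR_PBS libraries above all WT_PBS ones. The Ripk1, Mlkl and Casp12 calls were lost without DTR_PBS 1, which left 4 genes called, where 18.4% of all genes were higher. Without DTR_PBS 2 the Mlkl and Casp12 calls were lost, and without WT_PBS 1 the Mlkl call.

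Casp8, the caspase at the branch between apoptosis and necroptosis, had 8.0, 11 and 22.4 CPM in DTR_PBS, against 4.28, 5.63 and 6.05 CPM in WT_PBS. As for Ripk3, the groups did not overlap, which held in the higher direction for 11.2% of all genes tested. Its log2 fold change was 1.27 ± 0.30 (SE), a fold of 2.42, with an adjusted p of 0.00147.

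Casp4, the sensor and protease of the non-canonical pathway, had a log2 fold change close to that of Ripk3, and which of them was larger changed with the setting. With the tag series as a covariate it was 1.60 for Casp4 and 1.80 for Ripk3. The Casp4 libraries ran at 1.5, 2.52 and 9.23 CPM (lowest, median, highest) in DTR_PBS, against 0.57, 1.0 and 1.92 CPM in WT_PBS. They held 6 to 430 counts in DTR_PBS and 4 to 55 in WT_PBS, so several of these levels rest on few counts. With all libraries and no covariate the log2 fold change was 1.92 ± 0.47 (SE), a fold of 3.79, with an adjusted p of 0.0018. DTR_PBS 1 and 2, at 9.23 and 6.83 CPM, were well above the other 4 injured libraries, and 4 of 6 lay above all WT_PBS libraries. Pycard, the adaptor that links sensors to caspase-1, had 9.19, 12.7 and 19.0 CPM in DTR_PBS, against 5.57, 8.81 and 9.34 CPM in WT_PBS. The lowest DTR_PBS library alone fell inside the WT_PBS range, and the log2 fold change was 0.76 ± 0.24 (SE, adjusted p = 0.011). Casp12, an inflammatory-group caspase of the endoplasmic reticulum whose role is debated, had 2.22, 5.1 and 11.1 CPM in DTR_PBS, against 0.815, 2.29 and 6.15 CPM in WT_PBS. The lowest of these values rest on 5 counts in DTR_PBS 4 and 3 counts in WT_PBS 2. The highest WT_PBS library lay above 4 of the 6 DTR_PBS libraries, and the log2 fold change was 1.16 ± 0.40 (SE, adjusted p = 0.0206). The call was lost with the tag series as a covariate (0.99, adjusted p = 0.054) and with only these 2 groups in the fit (adjusted p = 0.0566); U tags with lower numbers were in WT groups only.

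Casp1, the caspase that matures interleukin-1 beta, had 0.4, 1.37 and 5.67 CPM in DTR_PBS, against 0.356, 0.746 and 1.78 CPM in WT_PBS. DTR_PBS 1 and 2, at 5.67 and 4.84 CPM, were high and the other 4 lay within the WT_PBS range, and the log2 fold change of 1.38 ± 0.57 (SE) had an adjusted p of 0.0512. DTR_PBS 3, 4, 5 and 6 held 13, 3, 4 and 3 Casp1 counts, and WT_PBS libraries 2 to 51. The level in most of these DTR_PBS libraries was therefore barely resolved. The call changed with the libraries: Casp1 passed when any one of DTR_PBS 3, 4, 5 or 6 or WT_PBS 6 was left out, with adjusted p between 0.0205 and 0.0494, and it passed in DESeq2 (1.39, adjusted p = 0.0449). It did not pass in limma voom (adjusted p = 0.065), with the tag series as a covariate (1.24, adjusted p = 0.0992) or among V tags (0.62, adjusted p = 0.633), and without DTR_PBS 1 its log2 fold change was 0.89 (adjusted p = 0.237). Gsdmd, the pore former, had 6.81, 9.78 and 18.1 CPM in DTR_PBS, against 6.52, 8.3 and 9.64 CPM in WT_PBS. Its log2 fold change was 0.48 ± 0.30 (SE, adjusted p = 0.204), with an interval of -0.12 to 1.09 at 2 SE on either side, and 3 of 6 DTR_PBS libraries lay above all WT_PBS ones.

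**Figure D2:**
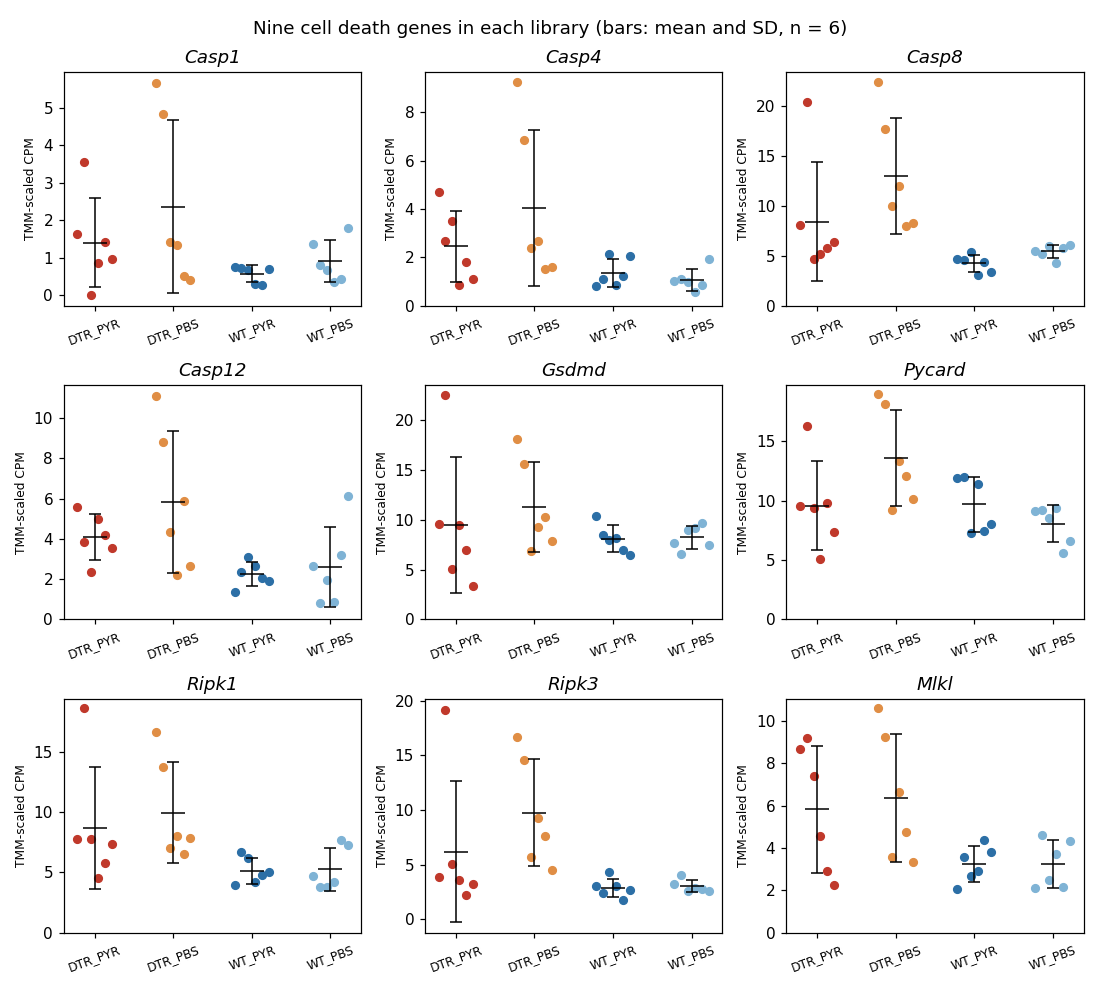
Scaled CPM (y axis) of each gene in each library, by group (x axis), with the mean and SD of 6 libraries. DTR_PBS 1 and 2 are the 2 leftmost DTR_PBS points and DTR_PYR 2 the second DTR_PYR point; DTR_PBS 1 and 2 are among the 3 highest libraries for all 9 genes.

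The same few libraries were high for most of the genes. DTR_PBS 1 and DTR_PBS 2 were among the 3 highest of 24 libraries for 9 of 9 genes, and DTR_PYR 2 for 7 of 9. With group means removed, the 36 pairs of genes had Pearson correlations of log2 CPM over the 24 libraries between -0.041 (Casp12 with Pycard) and 0.813 (Casp8 with Ripk1), with a median of 0.516. The libraries behind these values share the 3 high ones and differ in depth, and the values are a description. Over all 24 libraries, the genes whose log2 CPM was most like Casp8 were Apaf1, the apoptosome scaffold, with a Pearson r of 0.951, Cd53, a leukocyte membrane protein, with 0.951, and Edem1 with 0.948. Ripk3 was most like Uap1l1 (0.95), Gusb (0.947) and Cndp2 (0.942), and Casp4 was most like Ifi204 (0.905), Rian (0.903) and Fam111a (0.895). The highest likeness was 0.893 for Casp1 (Tram1), 0.889 for Casp12 (Ltn1), 0.882 for Gsdmd (Fabp5), 0.859 for Pycard (Cxcr6), 0.91 for Ripk1 (AI607873) and 0.889 for Mlkl (Dennd1c).

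Markers of several cell types moved with these genes. Of 15 macrophage and monocyte markers, 14 rose in DTR_PBS relative to WT_PBS hearts, 0 fell and 0 of the 15 were at 0. Their summed level was 737 to 2050 CPM in DTR_PBS libraries, against 260 to 404 CPM in WT_PBS libraries, and the highest sums of all libraries were in DTR_PYR 2 (2300 CPM), DTR_PBS 1 (2050 CPM) and DTR_PBS 2 (1850 CPM). Those are the libraries with the highest levels of most of the 9 genes. In the same order, they also had the highest fibroblast marker sums, at 7150, 6580 and 5710 CPM. Their ventricular cardiomyocyte marker sums were the lowest of all libraries, at 35700, 24200 and 25800 CPM. Of 7 neutrophil markers tested, 4 rose, with sums of 10.7 to 46.6 CPM in DTR_PBS against 4.16 to 10.5 CPM in WT_PBS, and Ly6g, a defining neutrophil marker, was under the filter. Fibroblast markers rose for 5 of 8 genes, with sums of 2790 to 6580 CPM in DTR_PBS and 837 to 1120 CPM in WT_PBS. Endothelial markers fell for 6 of 8 genes and ventricular cardiomyocyte markers for 5 of 9. T and NK cell markers rose for 0 of 6 tested by edgeR, and B cell markers for 1 of 5. The part of these cell types in the results was not tested.

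**Figure D3:**
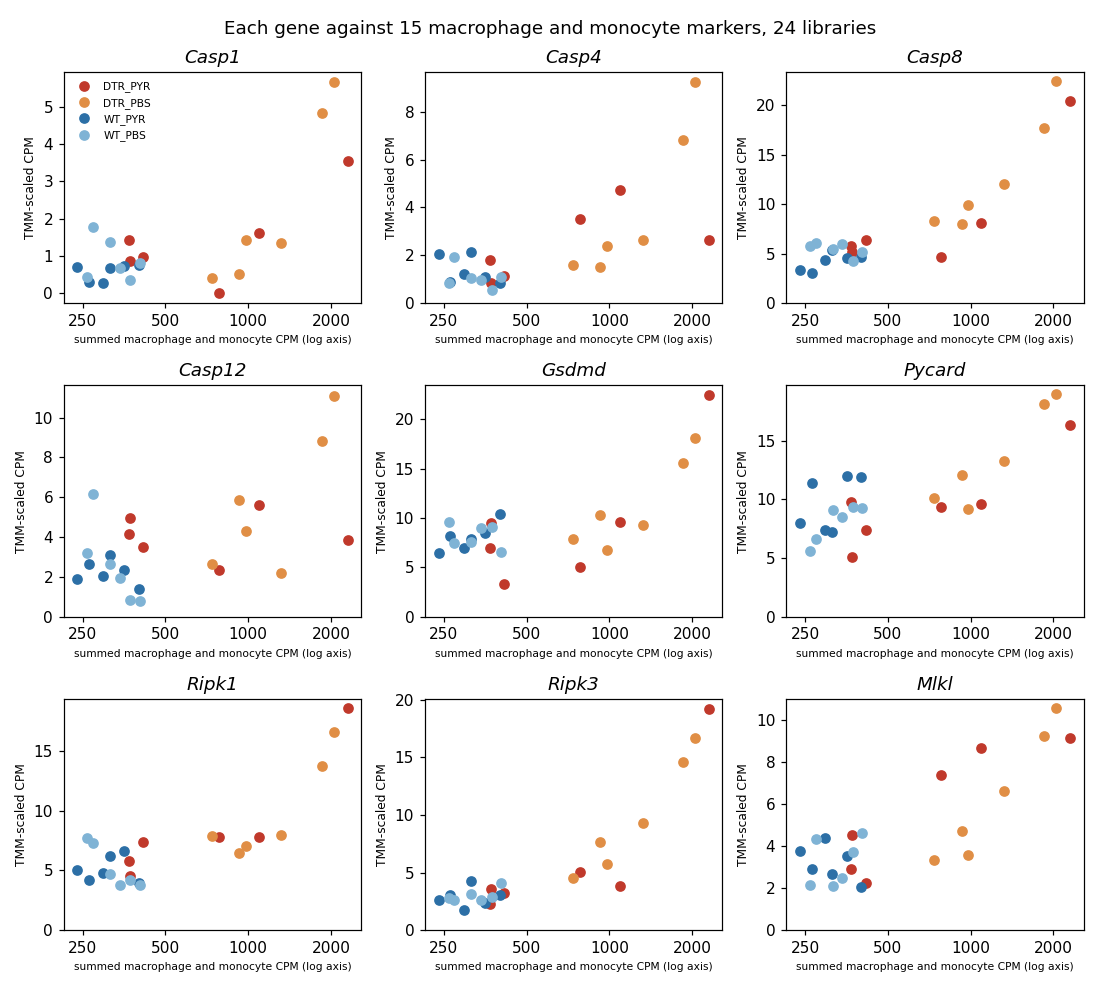
Scaled CPM of each gene (y axis) against the summed level of 15 macrophage and monocyte markers (x axis, log scale) in 24 libraries, coloured by group. The 3 libraries at 1850 to 2300 CPM of markers hold the highest Casp8, Ripk1, Ripk3, Gsdmd and Pycard values.

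Under pyridostigmine, Casp8 alone of the 9 genes rose in injured hearts by the edgeR test, where 12.2% of all genes were called, 8.06% higher and 4.17% lower. The median log2 fold change of the 9 genes was 0.796, against 0.042 over all genes tested. Casp8 had 4.68, 6.11 and 20.4 CPM as the lowest, median and highest of the DTR_PYR libraries, against 3.07, 4.48 and 5.37 CPM in WT_PYR. Its log2 fold change was 0.95 ± 0.31 (SE, adjusted p = 0.0453), and the call was lost when any one of WT_PYR 1, 2, 4, 5 or 6 or DTR_PYR 1 or 2 was left out, with 0.52 (adjusted p = 0.205) without DTR_PYR 2. Left without DTR_PYR 5 alone, Ripk3 was called as well (1.22, adjusted p = 0.0441), where 10.5% of all genes were higher, and without DTR_PYR 2 it was 0.25 (adjusted p = 0.657). Among V tags 0 of the 9 genes and 0% of all genes were called higher, and among U tags above 300 the called genes were Casp8 and Ripk3, where 13.4% of all genes were higher. The libraries that stood apart, DTR_PYR 4, 5 and 6, all carry V tags, and the U tags above 300 hold only DTR_PYR 1 and 2. The tag split is therefore nearly the same as setting those libraries apart.

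In the 3 DTR_PYR libraries that stood apart, only Casp8 in 1 of them, at 6.41 CPM in DTR_PYR 6, lay above all 12 WT libraries, though all 3 were above the 6 WT_PYR libraries for Casp1 and Casp12. DTR_PYR 1, 2 and 3 were all above the 12 WT libraries for Casp4, Ripk1 and Mlkl. Of these 3, 2 were above them for Casp8 and Ripk3, 1 for Casp1, Gsdmd and Pycard, and 0 for Casp12. Without DTR_PYR 4, 5 and 6, 5 genes rose relative to WT_PYR: Ripk3 by 1.69 on the log2 scale (adjusted p = 0.00397), Casp8 by 1.39 (0.00404), Mlkl by 1.39 (0.00451), Ripk1 by 1.14 (0.0122) and Casp4 by 1.42 (0.0439), where 17.5% of all genes were higher. Casp1 (1.57), Casp12 (0.89), Gsdmd (0.62) and Pycard (0.27) did not pass. This exclusion was chosen after the data were seen. The macrophage and monocyte marker sums of DTR_PYR 4, 5 and 6 were 372, 367 and 415 CPM, against 239 to 404 CPM in the 12 WT libraries, while DTR_PYR 1, 2 and 3 had 1090, 2300 and 784 CPM. Of the 15 markers, 14 rose in DTR_PYR relative to WT_PYR with all 6 libraries and 15 without these 3.

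With all 6 libraries, Mlkl had 2.24, 5.97 and 9.17 CPM as the lowest, median and highest in DTR_PYR, against 2.06, 3.24 and 4.39 CPM in WT_PYR. DTR_PYR 1, 2 and 3 held the high values, between 7.41 and 9.17 CPM, and its log2 fold change was 0.80 ± 0.36 (SE, adjusted p = 0.134). Ripk3 had 2.24, 3.7 and 19.2 CPM in DTR_PYR, against 1.78, 2.86 and 4.3 CPM in WT_PYR. The value of 19.2 CPM was that of DTR_PYR 2 alone, and the log2 fold change was 1.01 ± 0.42 (SE, adjusted p = 0.106), or 0.25 without that library. Ripk1 had 4.54, 7.58 and 18.6 CPM in DTR_PYR, against 3.96, 4.9 and 6.66 CPM in WT_PYR. DTR_PYR 2 was again the highest, and the log2 fold change was 0.71 ± 0.31 (SE, adjusted p = 0.123), or 0.35 without that library. Casp4 had 0.864, 2.24 and 4.71 CPM in DTR_PYR, against 0.839, 1.17 and 2.15 CPM in WT_PYR, with a log2 fold change of 0.77 ± 0.48 (SE, adjusted p = 0.296), or 0.41 without DTR_PYR 1. DTR_PYR 1, 2 and 3 were again above all WT_PYR libraries. Casp12 had 2.34, 4.01 and 5.59 CPM in DTR_PYR, against 1.37, 2.22 and 3.09 CPM in WT_PYR, and here 5 of 6 DTR_PYR libraries were above all WT_PYR ones. Its log2 fold change was 0.91 ± 0.42 (SE, adjusted p = 0.143).

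Casp1 had 0, 1.2 and 3.55 CPM in DTR_PYR, against 0.275, 0.688 and 0.762 CPM in WT_PYR. The 0 was in DTR_PYR 3, a library of 2387030 counts in which 3 counts make 1.17 CPM, so its level was not resolved there, and the other 5 DTR_PYR libraries lay above all WT_PYR ones. The log2 fold change was 1.22 ± 0.63 (SE, adjusted p = 0.198). Gsdmd had 3.36, 8.24 and 22.5 CPM in DTR_PYR, against 6.47, 8.06 and 10.4 CPM in WT_PYR, with a log2 fold change of 0.21 ± 0.31 (SE, adjusted p = 0.694). Its sign turned without DTR_PYR 2 (-0.20) and in limma voom (-0.07). Pycard had 5.08, 9.46 and 16.3 CPM in DTR_PYR, against 7.25, 9.72 and 12 CPM in WT_PYR. DTR_PYR 2 lay above and another DTR_PYR library below all WT_PYR ones for Pycard, and the log2 fold change was -0.04 ± 0.24 (SE, adjusted p = 0.928), between -0.24 and 0.10 when 1 library was left out.

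**Figure D4:**
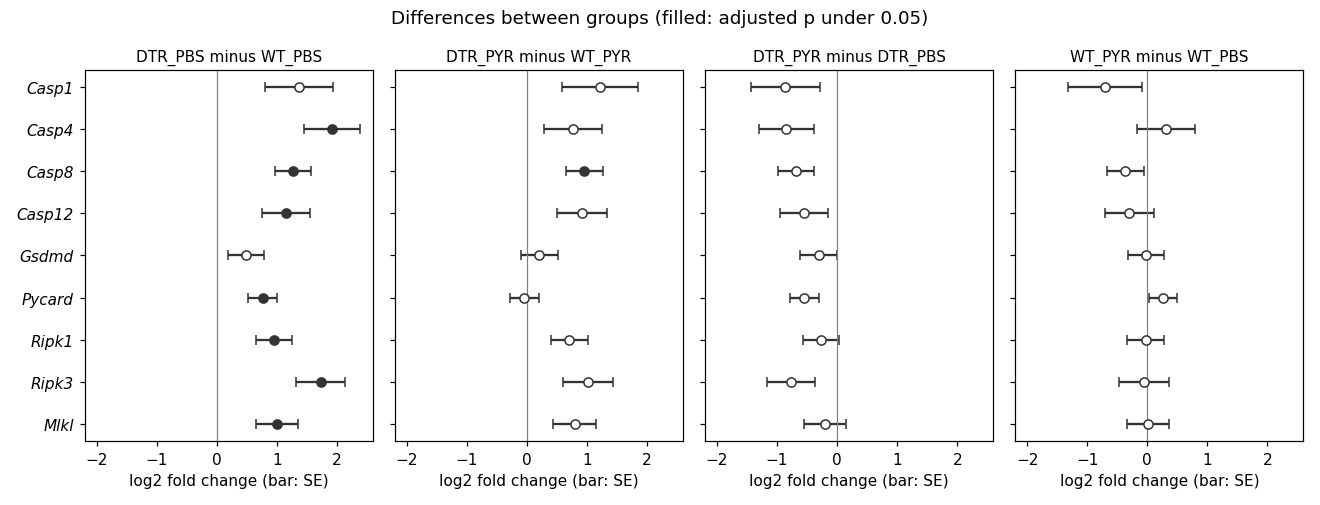
Log2 fold change (x axis, bar: SE) of each gene in 4 comparisons of 6 against 6 libraries, filled where the adjusted p was under 0.05. In DTR_PBS minus WT_PBS, 7 genes are filled; in DTR_PYR minus WT_PYR, Casp8 is; in DTR_PYR minus DTR_PBS all 9 points lie below 0 and 0 are filled.

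The effect of the drug in injured hearts was below the threshold for all 9 genes, and 0 of all 15456 genes were called by edgeR (0%), with 19.4% at an unadjusted p under 0.05. Every one of the 9 log2 fold changes in DTR_PYR minus DTR_PBS was below 0, between -0.86 for Casp1 and -0.20 for Mlkl, with a median of -0.549 against -0.0053 over all genes tested. At an unadjusted p under 0.05 there were 2 of 9 genes, Casp8 and Pycard. DESeq2 called 0 of 9 genes, with 0.453% of all genes lower. limma voom called Casp8 (-1.0, adjusted p = 0.0212) and Ripk3 (-1.51, adjusted p = 0.0118) as lower in DTR_PYR, with 7.38% of all genes lower.

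Casp8 had 4.68, 6.11 and 20.4 CPM in DTR_PYR, against 8.0, 11 and 22.4 CPM in DTR_PBS. Of the 6 DTR_PYR libraries, 4 lay below every DTR_PBS library, and the log2 fold change was -0.68 ± 0.30 (SE, adjusted p = 0.218). Ripk3 had 2.24, 3.7 and 19.2 CPM in DTR_PYR, against 4.54, 8.47 and 16.7 CPM in DTR_PBS, again with 4 DTR_PYR libraries below all of DTR_PBS. DTR_PYR 2 was above all of DTR_PBS for Ripk3, and the log2 fold change was -0.77 ± 0.40 (SE, adjusted p = 0.291). Pycard had 5.08, 9.46 and 16.3 CPM in DTR_PYR, against 9.19, 12.7 and 19.0 CPM in DTR_PBS. Its log2 fold change was -0.54 ± 0.24 (SE, adjusted p = 0.217). The log2 fold changes of Casp1 (-0.86), Casp4 (-0.85), Casp12 (-0.55), Gsdmd (-0.30), Ripk1 (-0.27) and Mlkl (-0.20) had adjusted p between 0.305 and 0.783. Without DTR_PBS 1 the Mlkl value was 0.03.

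The outcome depended on which DTR_PYR libraries were counted. Without DTR_PYR 2, a library of 2805284 counts, Casp8 (-1.12, adjusted p = 0.013), Pycard (-0.75, 0.0316) and Ripk3 (-1.53, 0.0121) were called lower in DTR_PYR than in DTR_PBS by edgeR, where 7.97% of all genes were lower. The same 3 were called without the 3 shallowest libraries, where 7.21% of all genes were lower. Without DTR_PYR 4, 5 and 6, 0 genes were called and the log2 fold changes were -0.58 to 0.39, so the sign turned for Gsdmd (0.11), Ripk1 (0.16) and Mlkl (0.39). Among V tags 0 of the 9 genes were called, where 3.08% of all genes were lower, and all 9 differences were below 0. Among U tags above 300, 0 of the 9 and 0% of all genes were called, with 8 differences below 0. DTR_PYR 4, 5 and 6 all carry V tags, so the tag split overlaps with their exclusion. Macrophage and monocyte marker sums were 367 to 2300 CPM in DTR_PYR and 737 to 2050 CPM in DTR_PBS, and 0 of 15 of these markers were called in this comparison. Their part in the result was not tested.

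In WT hearts pyridostigmine changed 0 of the 9 genes by edgeR, and 0 of 9 had an unadjusted p under 0.05, where 0% of all genes were called and 3.11% were under that unadjusted p. DESeq2 and limma voom called 0 of 9 as well. The log2 fold changes were -0.71 to 0.31 with a median of -0.0296. Mlkl had 3.24 ± 0.842 CPM in WT_PYR and 3.24 ± 1.12 CPM in WT_PBS (SD, n = 6 each), a log2 fold change of 0.01 with an interval of -0.70 to 0.71 at 2 SE on either side. Gsdmd averaged 8.08 ± 1.36 CPM in WT_PYR and 8.22 ± 1.2 CPM in WT_PBS (SD, n = 6 each), with an interval of -0.63 to 0.58. The interaction, which is the drug effect in injured hearts minus that in WT hearts, was called for 0 of 9 genes and 0% of all genes by edgeR. It was below 0 for all 9 genes, and 1 gene had an unadjusted p under 0.05, Pycard at -0.81 ± 0.34 (SE, adjusted p = 0.584), against 7.96% of all genes; DESeq2 and limma voom called 0 of 9. Without DTR_PYR 4, 5 and 6 the interaction was between -0.51 and 0.38.

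Related genes of the same pathways were counted in lists, each read beside the 21.3% of genes that rose and the 21.6% that fell in DTR_PBS relative to WT_PBS hearts. Of 17 listed inflammasome sensors and cytokine substrates, 13 passed the filter on low counts and were tested. Of these 13, 10 rose and 1 fell, with a median log2 fold change of 1.9. Il1b, the cytokine that caspase-1 matures, averaged 7.99 ± 2.89 CPM in DTR_PBS and 0.642 ± 0.345 CPM in WT_PBS (SD, n = 6 each), a log2 fold change of 3.55 (adjusted p = 0.000123). Mefv, the pyrin sensor of RhoA inactivation, averaged 4.95 ± 2.96 CPM in DTR_PBS and 0.208 ± 0.178 CPM in WT_PBS (4.87, adjusted p = 0.000156), and Nlrp1b, another sensor, 3.21 ± 1.85 CPM in DTR_PBS and 0.436 ± 0.256 CPM in WT_PBS (2.93, adjusted p = 0.000111). Mefv averaged 0.0866 CPM in WT_PYR as well, so it would not have passed the filter through its WT libraries alone. The share of the list that rose may be raised by the filter. Nlrp10 fell, with 15 ± 4.07 CPM in DTR_PBS and 26.8 ± 7.2 CPM in WT_PBS. Under pyridostigmine, 3 of the 13 rose and 1 fell, where 8.06% of all genes rose and 4.17% fell. Il1b (2.84, adjusted p = 0.0105) and Mefv (4.34, adjusted p = 0.00674) were among those that rose. Without DTR_PYR 4, 5 and 6 the counts were 7 and 1, where 17.5% of all genes rose and 15.4% fell.

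Some guanylate binding proteins and interferon-induced GTPases act upstream of the non-canonical caspase by opening bacterial vacuoles and membranes. Not every gene of the list has that role, Irgm2 among those that do not. The transcripts of the list went the other way from that of Casp4. Of 12 tested, 8 fell and 0 rose in DTR_PBS, with a median log2 fold change of -1.0. Irgm2 averaged 19.3 ± 2.07 CPM in DTR_PBS and 64.8 ± 33.5 CPM in WT_PBS (SD, n = 6 each), a log2 fold change of -1.75 (adjusted p = 0.000801). Gbp6 averaged 0.629 ± 0.407 CPM in DTR_PBS and 3.26 ± 0.812 CPM in WT_PBS (-2.17, adjusted p = 0.000621), and its counts are uncertain because 2 overlapping genes carry that symbol. Gbp5 averaged 7.07 ± 1.34 CPM in DTR_PBS and 14.7 ± 7.02 CPM in WT_PBS. The WT_PBS libraries varied widely for Irgm2 and Gbp5, and 0 of the 12 were called under pyridostigmine, with or without DTR_PYR 4, 5 and 6. Of all genes tested, 4.17% were lower there with all libraries and 15.4% without those 3.

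Casp9, the initiator caspase of the apoptosome, fell by 0.45 on the log2 scale (adjusted p = 0.0157). Of 2 tested members of the list of other gasdermins and membrane rupture, 0 were called, with Dfna5, the gene of gasdermin E, at 1.07 (adjusted p = 0.0684) and Ninj1, which breaks the membrane late in lytic death, at 0.00 (adjusted p = 0.991). Of 12 death receptor and adaptor genes, 5 rose and 0 fell, with a median of 0.55, including Tnfrsf1a, the TNF receptor, with means of 119 CPM in DTR_PBS and 55.4 CPM in WT_PBS (1.10, adjusted p = 0.000303), Tnfrsf10b, the receptor of TRAIL, at 1.26 (adjusted p = 0.00128) and Tlr4, the receptor of lipopolysaccharide, at 1.51 (adjusted p = 0.00184). Zbp1, a nucleic acid sensor that engages RIPK3, was called too at 1.78 (adjusted p = 0.0148), while Fadd and Cflar, the direct partners of caspase-8, had -0.10 and 0.33 and were not called. Of 18 genes of the ubiquitin control of RIPK1, 5 rose and 2 fell, with a median of 0.226. Among them were Tbk1, a kinase that phosphorylates RIPK1 (0.90, adjusted p = 0.00133), the ubiquitin ligase gene Birc3 (0.77, 0.0039) and Tnfaip3, the gene of the ubiquitin-editing enzyme A20 (0.87, 0.00534), with Rnf31, a ligase of linear ubiquitin chains (-0.55), and Ikbkg, the gene of NEMO (-0.67), lower. Of 19 BCL2 family and apoptosome genes, 7 rose and 5 fell, with a median of 0.354. Bid, which caspase-8 cleaves, averaged 5.43 CPM in DTR_PBS and 0.897 CPM in WT_PBS (2.51, adjusted p = 6.1e-05), Bax, a pore former of mitochondria, rose by 1.48 and Pmaip1, the gene of the BH3-only protein NOXA, by 3.63. The BH3-only genes Hrk and Bcl2l11 fell by 2.6 and 0.70, and Diablo, which counters inhibitors of caspases, fell by 0.56. Pmaip1 averaged 1.81 CPM in DTR_PBS, 0.154 CPM in WT_PBS and 0.202 CPM in WT_PYR. It would not have passed the filter through its WT libraries alone, so its rise is not evidence beyond that filter. The share of this list that rose may be raised in the same way. Hrk averaged 0.127 CPM in DTR_PBS and 0.759 CPM in WT_PBS. In DTR_PBS 4, 3 counts make 1.33 CPM, so the values of these genes rest on few counts. Under pyridostigmine the counts were 0 of 2 gasdermin genes, 2 higher of 12 death receptor genes, 0 of 18 ubiquitin genes, and 2 higher and 1 lower of 19 BCL2 family genes. Of all genes tested, 8.06% were higher and 4.17% lower in that comparison. Without DTR_PYR 4, 5 and 6 the list counts were 0 of 2 gasdermin genes, 5 higher of 12 death receptor genes, 1 higher and 2 lower of 18 ubiquitin genes, and 6 higher and 4 lower of 19 BCL2 family genes. There 17.5% of all genes were higher and 15.4% lower. For the drug effect in injured hearts, in WT hearts and for the interaction, 0 genes of any of these lists were called by edgeR, nor were any for the drug effect in injured hearts and the interaction without those 3 libraries.

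**Figure D5:**
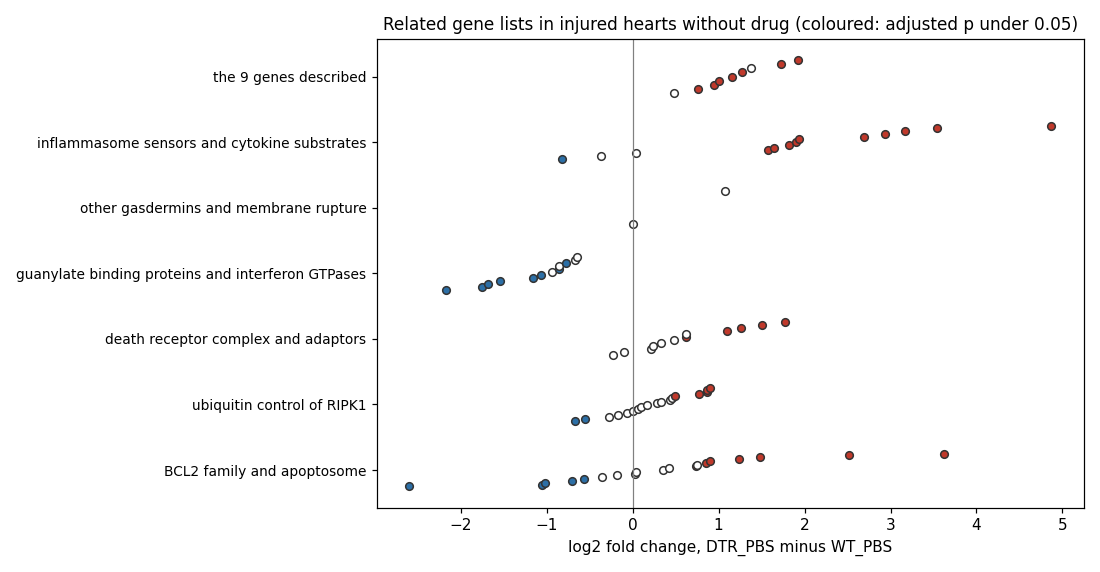
Log2 fold change in DTR_PBS minus WT_PBS (x axis) for the 9 genes described and for 6 related lists (y axis), 1 point a gene, red where called higher and blue where called lower. Inflammasome sensors lie mostly above 1 and the interferon GTPases all below 0.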

How the data were processed

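The deposited values used are raw counts per Ensembl gene for 24 libraries, made by the authors; per the labels' protocols the libraries were polyadenylated, single-end and without strand information. GRCm38, HTSeq, TopHat2 2.1.1, TopHat, Bowtie2, DESeq and edgeR appear in the submitters' processing notes with no roles given. Depth was 1877914 to 37842245 counts a library. Titles carry a distinct tag for each animal, so a library was taken as 1 animal, and replicate numbers follow accession order.

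The 15456 genes that exceeded 0.5 CPM in 6 or more libraries were scaled with TMM (trimmed mean of M-values) factors, then fitted by edgeR 4.0.16 quasi-likelihood (R 4.3.3), with 1 coefficient for each of 4 groups; p-values are two-sided, Benjamini-Hochberg adjusted over all tested genes, called under 0.05. limma 3.58.1 and DESeq2 1.42.0 were alternatives. CPM values are scaled, and RPKM used GENCODE exon lengths within the deposited locus. Log2 CPM used a prior count of 2. The code was tested on simulated data. From each related list up to 3 called genes in each direction with the smallest p under PBS were named; for likeness, the top 3 genes. Zbp1, Dfna5, Ninj1, Fadd and Cflar fall outside that rule and were chosen after their values were seen. The counts of 1 related list, of other caspases, are not reported here. The members and lists were chosen with earlier results of these data known.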

Additional observations from a re-analysis of the deposited data

Results flagged for a closer look

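In DTR_PYR, 1 library lay far above the other 5 for 4 of the 9 genes, and it was DTR_PYR 2 each time. Casp8 had 20.4 CPM there, against 4.68 to 8.09 CPM in the other 5. Gsdmd had 22.5 CPM, against 3.36 to 9.57 CPM. Ripk1 had 18.6 CPM, against 4.54 to 7.8 CPM, and Ripk3 had 19.2 CPM, against 2.24 to 5.07 CPM. Values of 9 genes in 4 groups gave 36 sets of 6, of which these 4 stood out, and chance flags about 1 in 20 such sets. The 36 sets are not independent, because the genes share libraries and are correlated. The 4 flags are therefore 1 library seen through 4 genes, and their number cannot be set against that rate. DTR_PYR 2 had 2805284 counts and the highest macrophage and monocyte marker sum of all libraries, 2300 CPM. Its fibroblast marker sum was also the highest, 7150 CPM. The part of depth and of these cells in the 4 values was not tested.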

How the results depend on the processing

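No paired analysis was possible because the replicate numbers follow accession order and pair nothing. In DTR_PBS minus WT_PBS, 7 genes were called, 4 to 8 when 1 library was left out, and 1 (Ripk3) among V tags. Of all genes tested, 21.3% were higher with all libraries and 9.72% among V tags. With 1 library left out, 2810 to 3399 of all genes were higher. In DTR_PYR minus WT_PYR, 1 gene was called, 0 to 2 when 1 library was left out. Of all genes tested, 8.06% were higher with all libraries, and 533 to 1695 genes were higher with 1 library left out. The count among the 9 genes was 0 with limma voom, where 396 of 15456 genes were higher, and with upper-quartile factors (1163 of 15456). It was 0 with no filter on low counts (977 of 29324) and with only the groups of the contrast in the fit (789 of 14081). The same held with the tag series as a covariate (1234 of 15456) and among V tags (0 of 14232). It was also 0 without the 3 shallowest libraries (DTR_PBS 4, DTR_PYR 2 and DTR_PYR 3), where 87 of 15154 genes were higher. It was 2 among U tags above 300, where 13.4% of all genes were higher. It was 5 without DTR_PYR 4, 5 and 6, where 17.5% of all genes were higher. Those libraries all carry V tags, so the tag settings overlap with that exclusion. In DTR_PYR minus DTR_PBS, 0 genes were called, 0 to 3 when 1 library was left out, 2 with limma voom and 3 without the 3 shallowest libraries (Casp8, Pycard and Ripk3 lower, where 987 of all genes were higher and 1092 lower). With limma voom 7.38% of all genes were lower. The 3 called with 1 library left out were without DTR_PYR 2, where 7.97% of all genes were lower. The cause was not tested. WT_PYR minus WT_PBS and the interaction stayed at 0 called in every alternative run. Without TMM scaling the median of all genes in DTR_PBS minus WT_PBS moved to 0.385, with 5705 genes higher and 1756 lower, against 3293 and 3341 with it; all 9 genes were then called, at 0.89 to 2.40. Over all genes, DTR_PYR minus DTR_PBS had 0 called by edgeR, 242 by DESeq2 and 1765 by limma voom. Low depth limits Casp1 most, with 0 to 51 counts in DTR_PYR libraries.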
